A study of Homo sapiens with 15 samples.

Results

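This report describes 36 genes of the synaptic vesicle and of synaptic adhesion in A673 cells, an Ewing sarcoma line driven by the fusion oncoprotein EWS/FLI. The genes were chosen by name from families of the synapse (synaptotagmins, SV2 proteins, synapsins, SNARE proteins, release-site proteins, neurexins, neuroligins and contactin-associated proteins), and all 36 were found among the 57820 Ensembl genes of the deposited count table. RNA-seq was performed on 15 libraries, 3 for each of 5 conditions, all made by retroviral transduction of this single cell line, with replicates numbered 1 to 3. Cells labelled iLuc received an shRNA against luciferase and an empty cDNA vector, and so kept their endogenous EWS/FLI (endo-EF). Cells labelled iEF received an shRNA against EWS/FLI and the empty vector. The other 3 conditions received the EWS/FLI shRNA and a cDNA: WT-EF (wildtype EWS/FLI), Δ22 (delta22 in the labels, which lacks nearly all of the EWS domain) and DAF (tyrosine to alanine substitutions in the amino-terminal part of the EWS domain). Knock-down began on day 1, the cDNA or empty vector followed on day 5, and cells were selected with puromycin (2 μg/mL) and hygromycin B (400 μg/mL) up to day 16. The study's design treats a whole knock-down and rescue experiment as 1 replicate, so the p-values rest on 3 such experiments in a single line. They measure the spread that is left once condition and replicate number are fitted over all 15 libraries.

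At a chemical synapse, transmitter is stored in vesicles that carry SV2 proteins, synaptophysin and synaptic vesicle-bound SNARE proteins (VAMP), and that are tethered by synapsins. A vesicle is released when VAMP pairs with syntaxin and SNAP25 on the plasma membrane, which synaptotagmins trigger on binding calcium, at release sites organised by RIM proteins and the small GTPase RAB3A. Neurexins on the presynaptic side bind neuroligins on the postsynaptic side, and the contactin-associated proteins (CNTNAP) are relatives of neurexins that join axons to glia or to other neurons. Ewing sarcoma cells are not neurons, but tumours of this type can carry neuronal markers.

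Total counts ranged from 28659475 to 41859880 per library, with a median of 32943231. The libraries were scaled with edgeR's TMM factors, and levels are given as CPM, counts relative to the scaled library size. FLI1, whose reads come from both endo-EF and the cDNAs, was at 49.4 ± 2.62 CPM in iLuc (mean ± SD, n = 3) and at 14.6 ± 1.44 CPM in iEF, and at 17.6 ± 1.39, 24.3 ± 2.64 and 31.2 ± 6.08 CPM in WT-EF, DAF and Δ22 (n = 3 each). The shRNA against EWS/FLI targets its 3′UTR, and whether the cDNAs carry that region is not given in the sources used here. Counts over the whole gene may therefore not compare fusion levels between iLuc and the rescued cells. The Ewing sarcoma genes NR0B1 and NKX2-2, both activated by EWS/FLI, were at 55.0 ± 5.77 and 5.23 ± 0.822 CPM in iLuc and at 5.71 ± 2.58 and 0.943 ± 0.0696 CPM in iEF. CD99, a surface marker of the tumour whose gene is present on both sex chromosomes of the reference, had at most 3 counts in any library.

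Of the 36 genes, 34 averaged at least 1 count per library and were tested in a fit over all genes. A gene is called here at a Benjamini-Hochberg adjusted p under 0.05 in the quasi-likelihood test of edgeR. Endo-EF went with higher levels of 15 of the 34 genes and lower levels of 9 in iLuc against iEF, where 19.5% of all 28793 genes tested were called higher and 22.1% lower. The higher genes were SYT1, SYT3, SYT4, SYT6, SYT12, SV2A, SV2B, SV2C, SYP, SYN1, SYN3, SNAP25, RAB3A, NLGN3 and CNTNAP2. The lower genes were SYT7, SYT11, SYT17, SYN2, STX1A, NRXN2, NRXN3, CNTNAP1 and CNTNAP3. Both directions were thus found within the synaptotagmins, the synapsins and the CNTNAP genes, while the 3 SV2 genes all rose. The median log2 fold change of the 34 genes was 0.77 (0.53 when genes with at most 3 counts in every library of a condition are set at that floor), beside 0.041 over all genes. Where only the 17653 genes averaging at least 10 counts per library were fitted, 30.0% of them were called higher in iLuc than in iEF and 31.6% lower. The list was drawn up with results of these data known, so its counts describe these genes and no more. In bulk RNA, fewer cells that express a gene and less RNA per cell cannot be told apart.

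**Figure D1:**
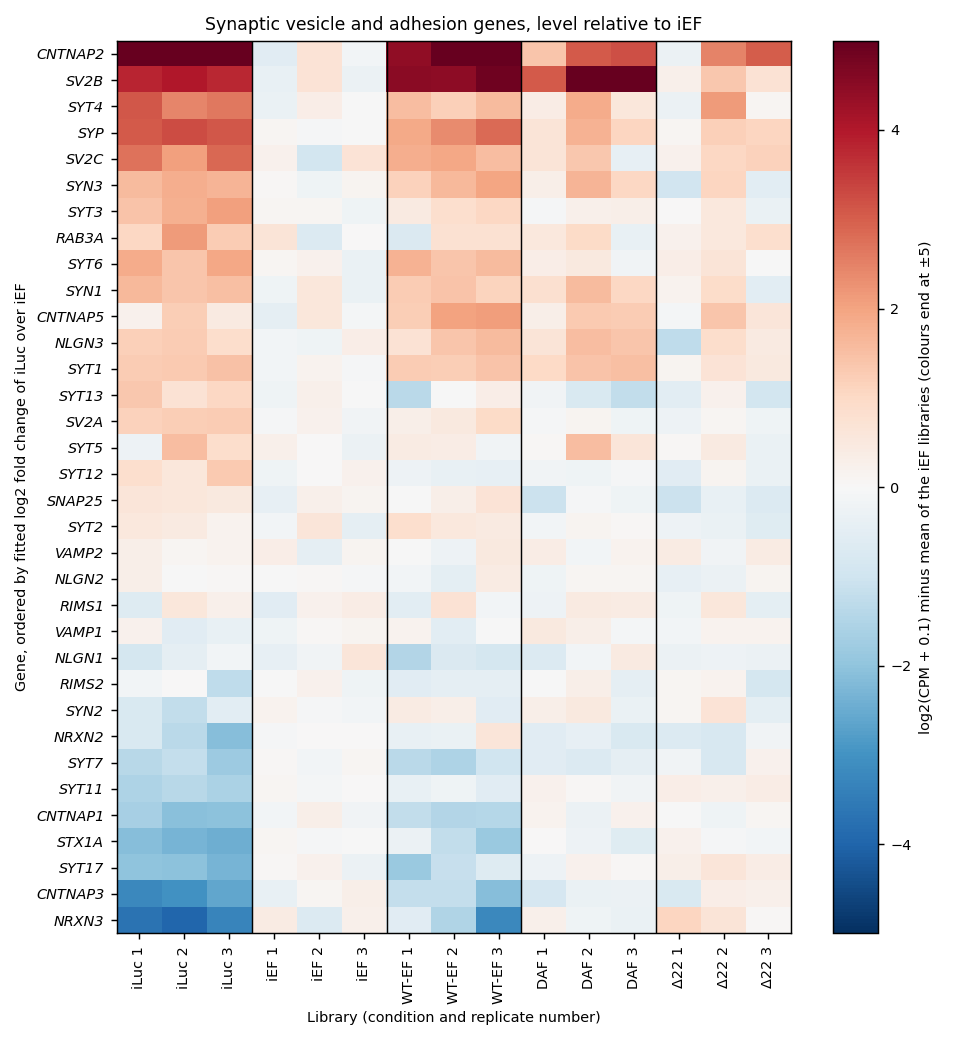
Level of each of the 34 tested genes (rows) in each library (columns), as log2(CPM + 0.1) minus the mean of the 3 iEF libraries, with red for higher and blue for lower. Rows run from CNTNAP2, with the largest fitted increase in iLuc over iEF, to NRXN3, with the largest decrease; the WT-EF columns are fainter than iLuc at SYP, STX1A and NRXN3, and DAF replicates 2 and 3 share the darkest red of SV2B, where the colours end.

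Among the synaptotagmins, SYT1, the main calcium sensor of fast transmitter release, was the highest gene of this family per length with endo-EF. SYT1 (ENSG00000067715, chromosome 12, 79257773 to 79845788 of GRCh37) had iLuc libraries at 186, 193 and 217 CPM, iEF libraries at 70.7, 89.0 and 76.1 CPM, WT-EF libraries at 187, 183 and 210.3 CPM, DAF libraries at 155, 208 and 225 CPM and Δ22 libraries at 86.2, 124 and 111 CPM. All iLuc, WT-EF and DAF libraries lay above all iEF and Δ22 libraries, and DAF replicate 1 was the lowest of them. On the log2 scale the fold change over iEF was 1.34 (standard error 0.11, edgeR adjusted p = 2.10e-07) for iLuc, 1.30 (standard error 0.11, edgeR adjusted p = 8.67e-07) for WT-EF and 1.31 (standard error 0.11, edgeR adjusted p = 1.22e-05) for DAF. With Δ22 it was 0.44 (standard error 0.11, edgeR adjusted p = 0.0676). The direct difference between WT-EF and DAF at SYT1 was -0.0022 (95% interval -0.24 to 0.23, edgeR adjusted p = 0.993), and DAF stood above Δ22 by 0.87 (standard error 0.11, edgeR adjusted p = 0.00103). The DAF increase of SYT1 was called in all 24 alternative analyses, and so were those of iLuc and WT-EF.

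SYT6, a synaptotagmin without strong calcium-triggered release activity that is known from the acrosome, separated the constructs differently. SYT6 (ENSG00000134207, chromosome 1, 114631913 to 114696502) had iLuc libraries at 29.6, 21.3 and 30.9 CPM, iEF libraries at 8.70, 9.41 and 6.49 CPM, WT-EF libraries at 27.3, 21.2 and 24.4 CPM, DAF libraries at 10.2, 11.3 and 7.11 CPM and Δ22 libraries at 10.3, 12.9 and 7.97 CPM. No WT-EF library overlapped any DAF library, while DAF and Δ22 libraries overlapped those of iEF. Against iEF, the log2 fold change of SYT6 was 1.76 (standard error 0.20, edgeR adjusted p = 5.90e-06) for iLuc, 1.58 (standard error 0.20, edgeR adjusted p = 3.21e-05) for WT-EF and 0.22 (standard error 0.20, edgeR adjusted p = 0.590) for DAF, and the direct difference between WT-EF and DAF was 1.36 (standard error 0.20, edgeR adjusted p = 1.53e-04). SYT4, a synaptotagmin of neuroendocrine vesicles, was low, with iLuc libraries at 1.25, 0.757 and 0.896 CPM, iEF libraries at 0.0263, 0.101 and 0.0582 CPM, WT-EF libraries at 0.360, 0.264 and 0.373 CPM, DAF libraries at 0.105, 0.475 and 0.134 CPM and Δ22 libraries at 0.0293, 0.600 and 0.0715 CPM. It had only 1, 3 and 2 counts in the iEF libraries and 41, 27 and 30 in iLuc, so that iLuc stood at 16.4-fold (exact 95% interval 7.26 to 45.7, which covers counting error only) the level of iEF, with an edgeR adjusted p of 6.63e-04. WT-EF stood at 5.65-fold (exact 95% interval 2.36 to 16.4, which covers counting error only), with an edgeR adjusted p of 0.0446. The WT-EF call missed 0.05 in 11 of 24 alternatives (edgeR adjusted p up to 0.164), among them the fits without iEF replicate 1, 2 or 3, iLuc replicate 3, WT-EF replicate 1 or 3, or DAF replicate 1 or 3. SYT3 averaged 9.13 counts and was higher in iLuc at 0.647 ± 0.158 CPM against 0.118 ± 0.0266 CPM in iEF (n = 3 each), a log2 fold change of 2.39 (standard error 0.41, edgeR adjusted p = 2.36e-04). SYT12, whose product is found on synaptic vesicles but does not bind calcium, ranged from 4.12 to 7.01 CPM in iLuc and from 2.36 to 3.17 CPM in iEF, a log2 fold change of 0.96 (standard error 0.22, edgeR adjusted p = 0.00237). WT-EF libraries ranged from 2.02 to 2.30 CPM, all under the iLuc libraries, with a log2 fold change of WT-EF over iLuc of -1.31 (standard error 0.22, edgeR adjusted p = 8.11e-04).

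SYT7, SYT11 and SYT17 moved the other way. SYT11, which does not bind calcium and restrains vesicle recycling, was the highest of the family per length in depleted cells. SYT11 (ENSG00000132718, chromosome 1, 155829358 to 155854990) had iLuc libraries at 54.3, 60.5 and 53.1 CPM, iEF libraries at 168, 147 and 161 CPM, WT-EF libraries at 123, 137 and 107 CPM, DAF libraries at 183, 167 and 140.4 CPM and Δ22 libraries at 199.7, 189.6 and 207 CPM. The iLuc libraries were the lowest, and the WT-EF libraries lay between those of iLuc and iEF without touching either. SYT11 had a log2 fold change over iEF of -1.50 (standard error 0.11, edgeR adjusted p = 4.43e-08) for iLuc and -0.38 (standard error 0.10, edgeR adjusted p = 0.0117) for WT-EF, and WT-EF stayed above iLuc by 1.13 (standard error 0.10, edgeR adjusted p = 7.66e-06). The small change with WT-EF missed 0.05 in 7 of 24 alternatives (edgeR adjusted p up to 0.163), among them the fits without iEF replicate 1 or 3 and without WT-EF replicate 1 or 3. SYT7, a high-affinity calcium sensor of slow release and lysosome exocytosis, had iLuc libraries at 1.10, 1.29 and 0.806 CPM, iEF libraries at 3.15, 2.80 and 3.26 CPM, WT-EF libraries at 1.14, 0.978 and 1.49 CPM, DAF libraries at 2.04, 1.85 and 2.21 CPM and Δ22 libraries at 2.73, 1.72 and 3.57 CPM. Its iLuc, WT-EF and DAF libraries all lay under the iEF libraries. The iLuc and WT-EF libraries had log2 fold changes of -1.50 (standard error 0.26, edgeR adjusted p = 2.30e-04) and -1.36 (standard error 0.25, edgeR adjusted p = 7.57e-04), and for DAF, which was not called, the value was -0.59 (standard error 0.24, edgeR adjusted p = 0.147). SYT17 had iLuc libraries at 0.428, 0.421 and 0.328 CPM, iEF libraries at 2.13, 2.39 and 1.66 CPM, WT-EF libraries at 0.498, 0.872 and 1.28 CPM, DAF libraries at 1.69, 2.37 and 2.11 CPM and Δ22 libraries at 2.52, 3.18 and 2.64 CPM, with iLuc lowest and no overlap between WT-EF and iEF. SYT17 had a log2 change of -2.39 (standard error 0.30, edgeR adjusted p = 1.48e-05) for iLuc and -1.24 (standard error 0.27, edgeR adjusted p = 0.00303) for WT-EF, and the latter missed 0.05 without the replicate 1 or the replicate 2 libraries of all conditions (edgeR adjusted p up to 0.0810).

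To compare levels between genes, CPM were divided by the exonic length of each gene (RPKM). On this per-length scale SYT1 was at 21.0 ± 1.68 RPKM and SYT11 at 10.8 ± 0.769 RPKM in iLuc (mean ± SD, n = 3), while in iEF SYT1 was at 8.31 ± 0.995 and SYT11 at 30.6 ± 2.08 RPKM. The order of the pair was thus opposite in the 2 conditions, with no overlap between the libraries. SYT1 made up 54.4% ± 1.78 (SD, n = 3) of the summed RPKM of the 12 synaptotagmins in iLuc and 19.96% ± 2.82 in iEF, and SYT11 made up 28.1% ± 2.95 and 73.4% ± 3.49. In WT-EF the shares were 41.2% ± 3.95 for SYT1 and 47.5% ± 4.78 for SYT11, with SYT6 next at 9.66% ± 1.32. In DAF they were 37.6% ± 7.29 and 57.1% ± 6.97, in Δ22 21.4% ± 3.29 and 72.6% ± 3.92. No other synaptotagmin of the list but SYT1, SYT6 and SYT11 exceeded a mean of 1 RPKM in any condition. SYT2, SYT5 and SYT13 had means of at most 0.146 RPKM and were called in none of the 7 comparisons, and SYT9 had 1 count in 2 libraries and none in the others, too few to test.

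The 3 SV2 genes and SYP were higher in iLuc and in WT-EF than in iEF, whereas VAMP1 and VAMP2 were not called. SV2B encodes a glycoprotein of vesicle membranes that regulates release. SV2B (ENSG00000185518, chromosome 15, 91643180 to 91845795) had iLuc libraries at 3.15, 3.59 and 3.04 CPM, iEF libraries at 0.0788, 0.270 and 0.0873 CPM, WT-EF libraries at 5.18, 5.02 and 6.68 CPM, DAF libraries at 1.83, 15.9 and 19.4 CPM and Δ22 libraries at 0.176, 0.495 and 0.286 CPM. Every iLuc, WT-EF and DAF library was above every iEF and Δ22 library, every WT-EF library was above every iLuc library, and DAF replicates 2 and 3 were the highest of all 15 while DAF replicate 1 was below every iLuc library. The iEF libraries had 3, 8 and 3 counts and the DAF libraries 52, 603 and 579 counts. SV2B had a log2 fold change over iEF of 4.59 (standard error 0.70, edgeR adjusted p = 8.25e-05) for iLuc, 5.38 (standard error 0.69, edgeR adjusted p = 3.13e-05) for WT-EF and 6.25 (standard error 0.68, edgeR adjusted p = 6.67e-05) for DAF, and each of these calls stood in all 24 alternatives. WT-EF differed from DAF by -0.88 (95% interval -1.89 to 0.13, edgeR adjusted p = 0.200). Without DAF replicate 1 this difference was called, at -1.55 (edgeR adjusted p = 0.00113), and it was also called without the replicate 1 libraries of all conditions and with no filter on low counts. DAF exceeded Δ22 by 5.07 (standard error 0.61, edgeR adjusted p = 7.29e-04). The DAF call over Δ22 was lost only without the replicate 2 libraries of all conditions (edgeR adjusted p = 0.0519).

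SV2A, the paralogue that is the binding site of levetiracetam, had iLuc libraries at 54.1, 56.9 and 58.1 CPM, iEF libraries at 23.1, 28.4 and 21.4 CPM, WT-EF libraries at 29.3, 33.8 and 47.3 CPM, DAF libraries at 23.5, 26.4 and 21.1 CPM and Δ22 libraries at 20.2, 25.9 and 20.9 CPM. Its iLuc libraries were the highest, WT-EF libraries were above the iEF libraries, and DAF and Δ22 libraries overlapped with iEF. Against iEF, SV2A had a log2 change of 1.22 (standard error 0.15, edgeR adjusted p = 1.18e-05) for iLuc, 0.60 (standard error 0.15, edgeR adjusted p = 0.00717) for WT-EF and -0.036 (standard error 0.15, edgeR adjusted p = 0.930) for DAF, and WT-EF was above DAF by 0.63 (standard error 0.15, edgeR adjusted p = 0.00529). The WT-EF call was lost without iEF replicate 3 (edgeR adjusted p = 0.0526). SV2C, the third paralogue, had iLuc libraries at 2.84, 1.74 and 3.10 CPM, iEF libraries at 0.420, 0.135 and 0.611 CPM, WT-EF libraries at 1.44, 1.61 and 1.20 CPM, DAF libraries at 0.597, 1.03 and 0.235 CPM and Δ22 libraries at 0.410, 0.808 and 0.893 CPM, with iLuc and WT-EF above all iEF libraries. Its log2 fold change was 2.68 (standard error 0.49, edgeR adjusted p = 4.06e-04) for iLuc and 1.83 (standard error 0.50, edgeR adjusted p = 0.0119) for WT-EF, the latter lost without iEF replicate 2 and without the replicate 1 or 2 libraries of all conditions (edgeR adjusted p up to 0.0838).

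SYP encodes synaptophysin, an abundant vesicle protein used as a marker of neuroendocrine tumours. SYP (ENSG00000102003, chromosome X, 49044268 to 49056677) had iLuc libraries at 33.1, 37.2 and 33.3 CPM, iEF libraries at 4.10, 3.64 and 3.78 CPM, WT-EF libraries at 14.7, 19.9 and 27.9 CPM, DAF libraries at 6.12, 12.9 and 8.28 CPM and Δ22 libraries at 4.16, 8.81 and 8.15 CPM. The libraries of all 4 other conditions lay above those of iEF, iLuc highest and WT-EF next without overlap, and 2 of the 3 Δ22 libraries were within the range of the DAF libraries. SYP differed from iEF by a log2 fold change of 3.15 (standard error 0.25, edgeR adjusted p = 1.32e-07) for iLuc, 2.39 (standard error 0.24, edgeR adjusted p = 4.24e-06) for WT-EF and 1.18 (standard error 0.24, edgeR adjusted p = 0.00558) for DAF, and 0.80 (standard error 0.24, edgeR adjusted p = 0.130) for Δ22. WT-EF exceeded DAF by 1.20 (standard error 0.23, edgeR adjusted p = 0.00117) and differed from iLuc by -0.76 (standard error 0.22, edgeR adjusted p = 0.0264), a call that 7 of 24 alternatives lost, among them the fits without iLuc replicate 1 or 2 and without WT-EF replicate 1 or 2 (edgeR adjusted p up to 0.207). The DAF call was lost without the replicate 2 libraries of all conditions (edgeR adjusted p = 0.154).

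The synapsins, phosphoproteins that tether vesicles to actin, were all low. SYN1 had iLuc libraries at 1.31, 1.09 and 1.19 CPM, iEF libraries at 0.289, 0.573 and 0.262 CPM, WT-EF libraries at 0.997, 1.14 and 0.879 CPM, DAF libraries at 0.703, 1.27 and 0.838 CPM and Δ22 libraries at 0.410, 0.756 and 0.214 CPM. All iLuc, WT-EF and DAF libraries were above all iEF libraries. Its log2 fold change over iEF was 1.75 (standard error 0.34, edgeR adjusted p = 6.35e-04) for iLuc, 1.46 (standard error 0.34, edgeR adjusted p = 0.00405) for WT-EF and 1.34 (standard error 0.34, edgeR adjusted p = 0.0202) for DAF, and the DAF call was lost in 8 of 24 alternatives, among them the fits with no replicate block and those without iEF replicate 1 or 3 or DAF replicate 2 or 3 (edgeR adjusted p up to 0.143). SYN3 had iLuc libraries at 0.489, 0.589 and 0.537 CPM, iEF libraries at 0.105, 0.0674 and 0.116 CPM, WT-EF libraries at 0.332, 0.502 and 0.666 CPM, DAF libraries at 0.141, 0.528 and 0.302 CPM and Δ22 libraries at 0, 0.313 and 0.0357 CPM, and its iEF counts were 4, 2 and 4. SYN3 had a log2 change of 2.40 (standard error 0.65, edgeR adjusted p = 0.00776) for iLuc and 2.27 (standard error 0.65, edgeR adjusted p = 0.0154) for WT-EF, and both calls were lost without iEF replicate 2 (edgeR adjusted p = 0.0509 and 0.0811), the latter also without WT-EF replicate 3 (0.0626). SYN2 was lower in iLuc at 0.790 ± 0.214 CPM than in iEF at 1.47 ± 0.165 CPM (n = 3 each), a log2 fold change of -0.87 (standard error 0.33, edgeR adjusted p = 0.0451) that was lost in 11 of 24 alternatives (edgeR adjusted p up to 0.230), among them those without iLuc replicate 1 or 2, iEF replicate 1 or 3, WT-EF replicate 2 or any 1 of the DAF libraries. Exons of TIMP4 on the other strand overlap those of SYN2, and whether counting used strand is not given in the sources used here, so its level is uncertain. Exons of 19 of the 36 genes overlap those of another annotated gene, among them SYT1, SYT7, SYT17, SV2C, SYP, SYN1, SNAP25, RAB3A, NRXN2 and CNTNAP1.

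**Figure D2:**
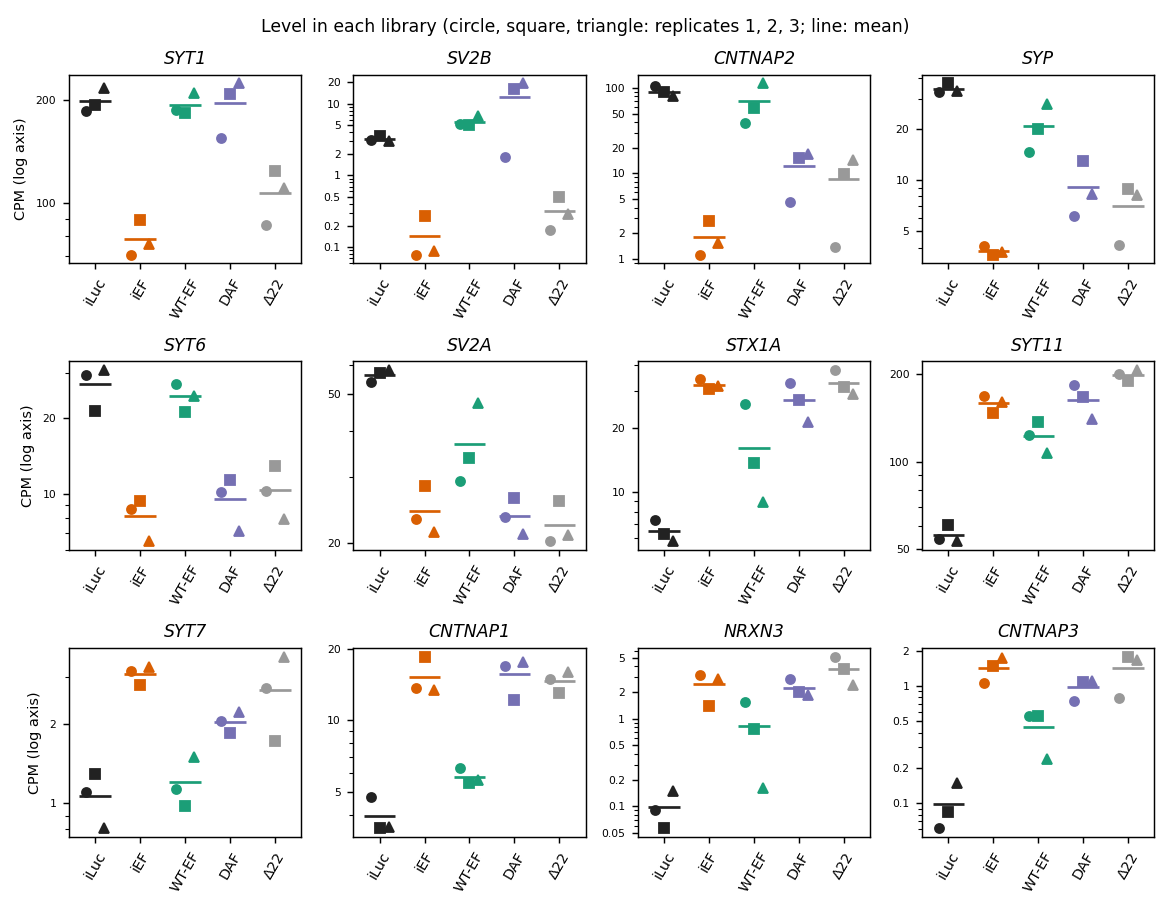
CPM of 12 of the genes in each library on a log axis, with a circle, square and triangle for replicates 1, 2 and 3 of a condition and a line at the mean. SYT1, SV2B, CNTNAP2, SYP, SYT6 and SV2A are higher in iLuc and WT-EF than in iEF, with DAF overlapping iLuc and WT-EF at SYT1 but overlapping iEF at SYT6 and SV2A. The other 6 genes have their lowest mean in iLuc, the next lowest in WT-EF and higher means in iEF, DAF and Δ22.

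Among the SNARE proteins that drive fusion, STX1A had the largest change with endo-EF. STX1A encodes syntaxin 1A of the presynaptic plasma membrane. STX1A (ENSG00000106089, chromosome 7, 73113536 to 73134002) had iLuc libraries at 7.34, 6.28 and 5.79 CPM, iEF libraries at 34.5, 30.8 and 31.7 CPM, WT-EF libraries at 26.0, 13.7 and 8.92 CPM, DAF libraries at 32.8, 27.4 and 21.4 CPM and Δ22 libraries at 38.0, 31.4 and 29.1 CPM. The iLuc libraries were the lowest and lay apart from all others, WT-EF replicate 3 came nearest to them, and WT-EF replicate 1 lay within the DAF range. STX1A had a log2 fold change over iEF of -2.34 (standard error 0.20, edgeR adjusted p = 3.27e-07) for iLuc, -1.09 (standard error 0.19, edgeR adjusted p = 5.25e-04) for WT-EF and -0.28 (standard error 0.19, edgeR adjusted p = 0.423) for DAF. WT-EF was above iLuc by 1.25 (standard error 0.20, edgeR adjusted p = 5.59e-04) and below DAF with -0.81 (standard error 0.19, edgeR adjusted p = 0.00508), of which the second was lost with no replicate block and without the replicate 2 libraries (edgeR adjusted p up to 0.117). SNAP25, the partner of syntaxin 1A on the plasma membrane, was at 6.14, 5.86 and 5.55 CPM in iLuc and 2.97, 4.82 and 4.39 CPM in iEF, a log2 fold change of 0.58 (standard error 0.21, edgeR adjusted p = 0.0370). This call was lost in 8 of 24 alternatives, among them those without any 1 of the iEF libraries and without iLuc replicate 1 or Δ22 replicate 1 (edgeR adjusted p up to 0.379). The vesicle SNARE genes VAMP1 and VAMP2 were called in none of the 7 comparisons. VAMP2 ranged from 2.06 to 4.02 CPM over all 15 libraries, and its difference between iLuc and iEF was 0.19 (95% interval -0.21 to 0.59, edgeR adjusted p = 0.445).

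RIMS1 and RIMS2 of the release site were called in no comparison. RIMS1, a scaffold that docks vesicles near calcium channels, ranged from 2.48 to 6.55 CPM over the 15 libraries, with replicate 1 the lowest in each condition but Δ22. Its log2 fold change was 0.041 (95% interval -0.46 to 0.55, edgeR adjusted p = 0.914) for iLuc and 0.014 (95% interval -0.49 to 0.52, edgeR adjusted p = 0.977) for WT-EF. RIMS2 had at most 0.290 CPM. RAB3A, the vesicle GTPase that binds RIM proteins, had 11, 30 and 14 counts in iLuc and 9, 1 and 4 in iEF, and its increase in iLuc of 1.84 (standard error 0.67, edgeR adjusted p = 0.0381) on the log2 scale missed 0.05 in 9 of 24 alternatives, among them DESeq2's Wald test and the fits without any 1 of the iLuc libraries or without iEF replicate 2 or 3 or DAF replicate 1.

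Of the adhesion genes, NRXN3 had the largest decrease with endo-EF. NRXN3, a presynaptic receptor for neuroligins, had iLuc libraries at 0.0917, 0.0561 and 0.149 CPM, iEF libraries at 3.18, 1.42 and 2.85 CPM, WT-EF libraries at 1.55, 0.766 and 0.160 CPM, DAF libraries at 2.85, 2.00 and 1.84 CPM and Δ22 libraries at 5.10, 3.70 and 2.43 CPM. The iLuc libraries held only 3, 2 and 5 counts, and WT-EF replicate 3 reached a level near theirs while WT-EF replicate 1 stayed within the iEF range. NRXN3 had a log2 fold change over iEF of -4.62 (standard error 0.58, edgeR adjusted p = 1.24e-05) for iLuc, -1.72 (standard error 0.43, edgeR adjusted p = 0.00666) for WT-EF, -0.17 (standard error 0.39, edgeR adjusted p = 0.864) for DAF and 0.56 (standard error 0.39, edgeR adjusted p = 0.604) for Δ22. NRXN2 had iLuc libraries at 1.80, 1.15 and 0.627 CPM, iEF libraries at 3.00, 3.17 and 3.17 CPM, WT-EF libraries at 2.38, 2.46 and 4.79 CPM, DAF libraries at 2.07, 2.32 and 1.81 CPM and Δ22 libraries at 1.88, 1.72 and 2.75 CPM, lower in every iLuc library than in any iEF library. The decrease was -1.37 (standard error 0.35, edgeR adjusted p = 0.00510) for iLuc, while WT-EF had 0.027 (standard error 0.32, edgeR adjusted p = 0.967) over iEF and was above iLuc by 1.40 (standard error 0.35, edgeR adjusted p = 0.0112). Without the replicate 2 libraries of all conditions, neither the iLuc decrease nor the WT-EF difference from iLuc passed 0.05 (edgeR adjusted p = 0.0656 and 0.0980).

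The neuroligins, postsynaptic partners of neurexins, differed among themselves. NLGN2, which acts at inhibitory synapses, was the highest per length at 2.17 ± 0.257 RPKM in iLuc, beside 0.103 ± 0.0275 for NLGN1 and 0.0402 ± 0.00617 for NLGN3 (mean ± SD, n = 3). NLGN2 was at 12.4 ± 1.47 CPM in iLuc and 11.4 ± 0.526 CPM in iEF (n = 3 each), and was called in no comparison, with a difference between iLuc and iEF of 0.12 (95% interval -0.27 to 0.51, edgeR adjusted p = 0.651). NLGN3 was low, with iLuc libraries at 0.611, 0.645 and 0.478 CPM, iEF libraries at 0.184, 0.169 and 0.291 CPM, WT-EF libraries at 0.415, 0.713 and 0.825 CPM, DAF libraries at 0.387, 0.791 and 0.704 CPM and Δ22 libraries at 0.0293, 0.469 and 0.322 CPM. All iLuc, WT-EF and DAF libraries were above all iEF libraries. Its log2 fold change was 1.42 (standard error 0.49, edgeR adjusted p = 0.0296) for iLuc, 1.54 (standard error 0.48, edgeR adjusted p = 0.0245) for WT-EF and 1.48 (standard error 0.49, edgeR adjusted p = 0.0674) for DAF, of which the iLuc call was lost in 6 of 24 alternatives, among them the fits without iLuc replicate 1 or iEF replicate 2 or 3, and the WT-EF call in 5, among them those without iEF replicate 2 or 3 or WT-EF replicate 3. NLGN1, which acts at excitatory synapses, had iLuc libraries at 1.34, 1.85 and 2.33 CPM, iEF libraries at 1.89, 2.23 and 3.96 CPM, WT-EF libraries at 0.858, 1.53 and 1.33 CPM, DAF libraries at 1.55, 2.32 and 3.49 CPM and Δ22 libraries at 2.08, 2.14 and 2.07 CPM. Its WT-EF libraries were the lowest group and lay under all iEF libraries, with a log2 fold change of -1.08 (standard error 0.24, edgeR adjusted p = 0.00336), whereas iLuc had -0.53 (standard error 0.24, edgeR adjusted p = 0.0920) and WT-EF differed from iLuc by -0.56 (95% interval -1.09 to -0.028, edgeR adjusted p = 0.139). The NLGN1 call of WT-EF over iEF was lost without the replicate 3 libraries of all conditions (edgeR adjusted p = 0.0553).

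CNTNAP2, which clusters potassium channels on myelinated axons, was the gene of the list with the largest fitted increase in iLuc over iEF. CNTNAP2 (ENSG00000174469, chromosome 7, 145813094 to 148118090) had iLuc libraries at 104, 88.2 and 79.3 CPM, iEF libraries at 1.13, 2.80 and 1.54 CPM, WT-EF libraries at 38.5, 58.0 and 114 CPM, DAF libraries at 4.64, 15.2 and 16.7 CPM and Δ22 libraries at 1.38, 9.88 and 14.5 CPM. All WT-EF libraries were above all DAF and Δ22 libraries, WT-EF replicate 3 was the highest of all 15, and replicate 1 was the lowest library of WT-EF, of DAF and of Δ22. CNTNAP2 had a log2 fold change over iEF of 5.86 (standard error 0.57, edgeR adjusted p = 1.04e-06) for iLuc, 5.21 (standard error 0.56, edgeR adjusted p = 6.41e-06) for WT-EF, 2.65 (standard error 0.54, edgeR adjusted p = 0.00511) for DAF and 2.05 (standard error 0.54, edgeR adjusted p = 0.0825) for Δ22. WT-EF exceeded DAF by 2.56 (standard error 0.47, edgeR adjusted p = 8.45e-04), and DAF differed from Δ22 by 0.61 (95% interval -0.39 to 1.61, edgeR adjusted p = 0.760). The DAF call was lost without the replicate 2 libraries of all conditions (edgeR adjusted p = 0.0762). The Δ22 increase over iEF was called in 6 of 24 alternatives. Among them were DESeq2's Wald test, no filter on low counts and the fits without Δ22 replicate 1 or the replicate 1 libraries of all conditions. On the per-length scale CNTNAP2 was at 5.53 ± 0.768 RPKM in iLuc and at 0.111 ± 0.0531 RPKM in iEF (mean ± SD, n = 3 each), next to 4.95 ± 0.331 and 0.550 ± 0.0336 RPKM for SYP.

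CNTNAP1, which joins axons to myelinating glia at paranodes, moved in the opposite direction. CNTNAP1 (ENSG00000108797, chromosome 17, 40834549 to 40852011) had iLuc libraries at 4.74, 3.51 and 3.55 CPM, iEF libraries at 13.8, 18.5 and 13.4 CPM, WT-EF libraries at 6.29, 5.47 and 5.62 CPM, DAF libraries at 17.0, 12.2 and 17.7 CPM and Δ22 libraries at 14.97, 13.0 and 15.9 CPM. Every iLuc library was under every WT-EF library, and every WT-EF library was under every iEF, DAF and Δ22 library. CNTNAP1 had a log2 fold change over iEF of -1.97 (standard error 0.18, edgeR adjusted p = 6.29e-07) for iLuc, -1.40 (standard error 0.18, edgeR adjusted p = 2.70e-05) for WT-EF and 0.023 (95% interval -0.34 to 0.39, edgeR adjusted p = 0.965) for DAF, and WT-EF was under DAF with -1.43 (standard error 0.18, edgeR adjusted p = 3.74e-05). CNTNAP3 had iLuc libraries at 0.0611, 0.0842 and 0.149 CPM, iEF libraries at 1.05, 1.48 and 1.75 CPM, WT-EF libraries at 0.554, 0.555 and 0.240 CPM, DAF libraries at 0.738, 1.08 and 1.11 CPM and Δ22 libraries at 0.791, 1.77 and 1.68 CPM, with iLuc lowest, WT-EF next and DAF and Δ22 overlapping iEF. CNTNAP3 had a log2 change of -3.82 (standard error 0.44, edgeR adjusted p = 5.59e-06) for iLuc and -1.62 (standard error 0.34, edgeR adjusted p = 0.00223) for WT-EF. CNTNAP3 has a near-identical copy, CNTNAP3B, and reads of the pair may not have been assigned uniquely, so its level is uncertain. CNTNAP5 averaged 6.13 counts, with 0, 3 and 1 counts in iEF and 8, 17 and 18 in WT-EF, so that WT-EF stood at 9.84-fold (exact 95% interval 3.58 to 37.8, which covers counting error only) the level of iEF, with an edgeR adjusted p of 9.20e-04. DAF stood at 4.78-fold (same kind of interval 1.57 to 19.4), Δ22 at 3.56-fold (1.12 to 14.8) and iLuc at 3.26-fold (1.01 to 13.7). None of these increases over iEF was called by edgeR. CNTNAP4 had at most 3 counts and was not tested.

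Promoter sequence is shown for 5 genes, since EWS/FLI binds DNA at ETS motifs with the core GGAA and at repeats of GGAA. The RefSeq table of promoter windows (GRCh38.p14, 250 bases before to 50 after a transcript start) held 43 windows for 28 of the 36 genes, and binding to them was not measured in these files. GGAA or its reverse complement TTCC, counted on both strands with overlaps, was found in 41 of the 43 windows (95.3%) and in 95.5% of all 35116 windows of the same length, with a median of 2 and 3 matches per window. A match is a description of the sequence and no sign of binding. The doubled form GGAAGGAA or TTCCTTCC, which overlaps the single form, was found in 3 of the 43 windows, those of SYN2, CNTNAP4 and CNTNAP5, and in 3.67% of all windows. The windows shown are the 4 with at least 7 matches, a density that 8.29% of all windows reach, and that of CNTNAP2. This gene had the largest increase in iLuc over iEF. They are written 5′ to 3′ on the strand of the gene, with GGAA and TTCC in capitals. SV2B at chr15:91099338-91099637 (plus strand, 7 matches) and CNTNAP5 at chr2:124025037-124025336 (plus, 9) belong to genes that were higher with WT-EF than in iEF, as does CNTNAP2 at chr7:146116551-146116850 (plus, 6). The other windows of SV2B, which are not shown, held 1, 1 and 2 matches. SYT11 at chr1:155859317-155859616 (plus, 9) and CNTNAP1 at chr17:42682281-42682580 (plus, 7) belong to genes that were lower.
SV2B: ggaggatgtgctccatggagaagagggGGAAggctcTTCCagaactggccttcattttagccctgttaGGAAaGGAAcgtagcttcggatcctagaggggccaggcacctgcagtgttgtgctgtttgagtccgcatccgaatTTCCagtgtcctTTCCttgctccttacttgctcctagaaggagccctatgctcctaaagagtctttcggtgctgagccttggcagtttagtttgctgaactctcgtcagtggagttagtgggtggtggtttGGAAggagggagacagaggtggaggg
CNTNAP5: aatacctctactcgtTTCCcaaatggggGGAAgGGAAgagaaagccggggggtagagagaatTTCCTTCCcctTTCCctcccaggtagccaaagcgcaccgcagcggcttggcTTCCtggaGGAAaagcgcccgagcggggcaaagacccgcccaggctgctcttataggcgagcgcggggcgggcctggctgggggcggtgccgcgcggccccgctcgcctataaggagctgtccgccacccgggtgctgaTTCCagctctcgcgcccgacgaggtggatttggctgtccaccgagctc
CNTNAP2: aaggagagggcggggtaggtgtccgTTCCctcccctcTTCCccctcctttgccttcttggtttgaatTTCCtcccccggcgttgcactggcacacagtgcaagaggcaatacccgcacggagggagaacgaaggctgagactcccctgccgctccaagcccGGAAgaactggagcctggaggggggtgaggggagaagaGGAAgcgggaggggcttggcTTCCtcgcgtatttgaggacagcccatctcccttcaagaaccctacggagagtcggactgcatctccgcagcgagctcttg
SYT11: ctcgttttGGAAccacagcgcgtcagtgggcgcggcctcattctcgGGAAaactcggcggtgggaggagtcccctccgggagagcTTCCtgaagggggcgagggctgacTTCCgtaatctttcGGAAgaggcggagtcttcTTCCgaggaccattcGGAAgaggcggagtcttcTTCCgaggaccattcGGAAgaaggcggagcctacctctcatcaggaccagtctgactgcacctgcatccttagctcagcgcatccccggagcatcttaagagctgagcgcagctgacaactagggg
CNTNAP1: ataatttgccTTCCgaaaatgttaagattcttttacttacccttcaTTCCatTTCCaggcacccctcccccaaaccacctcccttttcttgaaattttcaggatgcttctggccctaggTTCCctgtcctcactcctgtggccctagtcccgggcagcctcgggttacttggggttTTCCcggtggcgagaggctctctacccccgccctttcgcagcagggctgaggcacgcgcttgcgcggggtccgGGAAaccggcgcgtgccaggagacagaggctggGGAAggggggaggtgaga
Dense matches were thus present at genes of both directions, and the windows of SYT1 and SYP, which rose with WT-EF and DAF, held 3 and 4 matches.

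Rescue was then compared over the whole list. Each construct was set against the same 3 iEF libraries. WT-EF went with higher levels of 12 of the 34 genes (SYT1, SYT4, SYT6, SV2A, SV2B, SV2C, SYP, SYN1, SYN3, NLGN3, CNTNAP2 and CNTNAP5) and lower levels of 8 (SYT7, SYT11, SYT17, STX1A, NRXN3, NLGN1, CNTNAP1 and CNTNAP3), beside 12.9% and 17.0% of all genes tested. The median log2 fold change was 0.17, beside -0.0064 over all genes. Compared directly with iLuc, WT-EF-rescued cells were lower at 4 genes (SYT3, SYT12, SV2A and SYP) and higher at 8 (SYT11, SYT17, STX1A, NRXN2, NRXN3, CNTNAP1, CNTNAP3 and CNTNAP5), where all genes gave 9.03% and 10.7%. Both this comparison and that of iLuc with iEF use the same 3 iLuc libraries. Of all genes averaging at least 10 counts, 14.4% were lower and 20.4% higher in WT-EF than in iLuc. Of the 8 higher genes, CNTNAP5 missed 0.05 in 10, CNTNAP1 in 8 and SYT17 in 6 of 24 alternatives, and of the 4 lower genes SYT3 in 10, SYP in 7 and SV2A in 6 (edgeR adjusted p up to 0.192, 0.151, 0.170, 0.212, 0.207 and 0.205). The higher genes NRXN2, NRXN3 and CNTNAP3 missed it in 2 each (edgeR adjusted p up to 0.0980, 0.188 and 0.138). The numbers depended on single libraries, with 5 higher genes without iLuc replicate 2, and with 1, 1, 1 and 2 lower genes without iLuc replicate 1, WT-EF replicate 1, WT-EF replicate 2 and iLuc replicate 3.

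DAF raised 5 of the 34 genes over iEF, namely SYT1, SV2B, SYP, SYN1 and CNTNAP2, where 5.00% of all genes were called higher. Of the 34, 2 were higher with DAF without the replicate 2 libraries of all conditions. None was called lower by edgeR, where 6.19% of all genes were. At an unadjusted p under 0.05, 1 gene (SYT7) was lower, beside 12.5% of all genes, and DESeq2's Wald test called 0, beside 10.9%. The median log2 fold change with DAF was 0.15, beside 0.00036 over all genes. In the fit of genes averaging at least 10 counts, 10.1% of all genes were higher and 10.3% lower with DAF. In the direct contrast, WT-EF was above DAF at 5 genes (SYT6, SV2A, SYP, SNAP25 and CNTNAP2) and below it at 8 (SYT7, SYT11, SYT17, STX1A, NRXN3, NLGN1, CNTNAP1 and CNTNAP3), beside 12.4% and 16.1% of all genes. This comparison and that of WT-EF with iEF use the same WT-EF libraries. Of all genes averaging at least 10 counts, 22.8% were higher and 25.1% lower in WT-EF than in DAF. SNAP25 was at 3.93, 4.89 and 6.52 CPM in WT-EF and 1.86, 3.80 and 3.42 CPM in DAF, a log2 difference of 0.78 (standard error 0.21, edgeR adjusted p = 0.0122) that missed 0.05 with no replicate block and without DAF replicate 1, WT-EF replicate 3 or the replicate 1 libraries of all conditions (edgeR adjusted p up to 0.0805). Of the 8 lower genes, SYT7 missed 0.05 in 9 and CNTNAP3 in 8 of 24 alternatives (edgeR adjusted p up to 0.208 and 0.242), each of them without any 1 of the DAF libraries, and the number was 5 without DAF replicate 3. NLGN1 missed it in 3, NRXN3 and STX1A in 2, and SYT11 and SYT17 in 1 (edgeR adjusted p up to 0.0976, 0.0811, 0.117, 0.117 and 0.0899).

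Δ22 changed 0 of the 34 genes by edgeR, where 0.472% of all genes were called higher and 0.830% lower. At an unadjusted p under 0.05, 5 genes were higher (SYT1, SYT11, SYP, CNTNAP2 and CNTNAP5) and 1 was lower (SNAP25), beside 6.48% and 7.13% of all genes. DESeq2's Wald test called 3 higher and 1 lower, beside 2.80% and 3.72% of the genes it gave an adjusted p. The median log2 fold change was 0.16, beside 0.011 over all genes. DAF was above Δ22 at 2 genes, SYT1 and SV2B, beside 0.948% of all genes, and below it at 0, beside 0.379% of all genes. For the latter, 1 gene (SYT11) was lower at an unadjusted p under 0.05, beside 5.25% of all genes, and 0 by DESeq2, beside 1.69%.

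**Figure D3:**
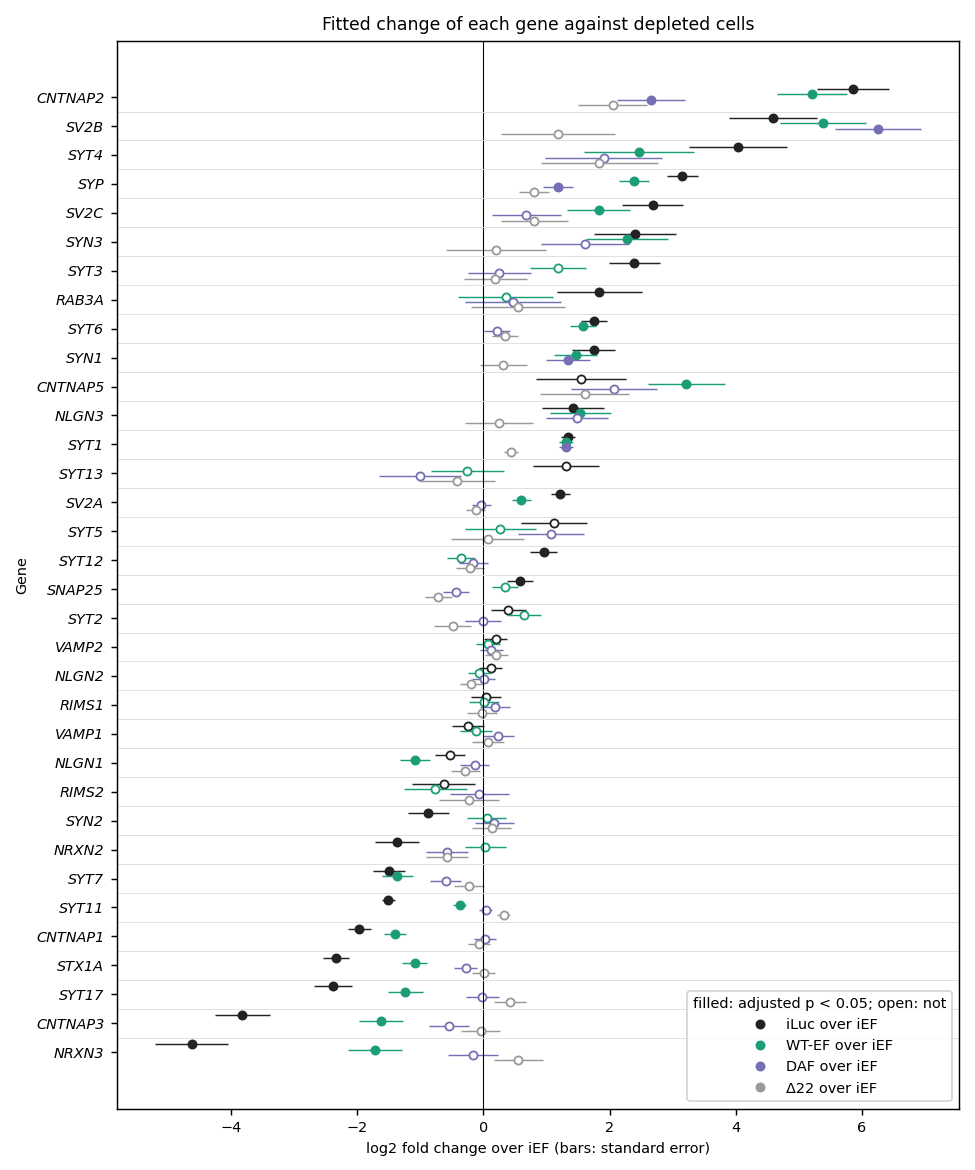
Fitted log2 fold change over iEF of each of the 34 genes for iLuc, WT-EF, DAF and Δ22, with bars for the standard error and filled points for an adjusted p under 0.05. Filled DAF points occur only at CNTNAP2, SV2B, SYP, SYN1 and SYT1, no Δ22 point is filled, and at the bottom genes from SYT7 to NRXN3 the iLuc points lie farthest to the left with WT-EF points between them and 0.

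Other genes of the same pathways were taken from 2 fixed sets, drawn up like the list itself with earlier results known. Of 58 other presynaptic release genes, 56 were tested, and 18 were higher and 17 lower in iLuc than in iEF, beside 19.5% and 22.1% of all genes (32.1% and 30.4% of the set), with a median log2 fold change of -0.24 (-0.013 with low genes at their bound). Among those with an average of at least 50 counts, large increases on the log2 scale were those of the vesicle protein gene SYNGR1, 2.45 (edgeR adjusted p = 1.25e-05), and the liprin gene PPFIA3, 2.41 (edgeR adjusted p = 6.22e-08). The largest decreases were those of the vesicle priming gene UNC13A, -1.91 (edgeR adjusted p = 1.72e-06), the dynamin gene DNM3, -1.38 (edgeR adjusted p = 8.25e-04) and the dynamin gene DNM1, -1.37 (edgeR adjusted p = 0.00189). With WT-EF, 13 were higher and 14 lower than in iEF, with DAF 13 and 2, and with Δ22 2 and 0 by edgeR, where all genes gave 12.9% and 17.0%, 5.00% and 6.19%, and 0.472% and 0.830%. In the fit of genes averaging at least 10 counts, all genes gave 30.0% and 31.6% for iLuc and 23.1% and 24.4% for WT-EF. They gave 10.1% and 10.3% for DAF, and 1.06% and 1.42% for Δ22. For Δ22, 1 was lower at an unadjusted p under 0.05 and 0 by DESeq2, beside the 7.13% and 3.72% of all genes given above.

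Of 63 other adhesion and postsynaptic scaffold genes, 57 were tested, and 27 were higher and 7 lower in iLuc, which is 47.4% and 12.3% of the set beside the same 19.5% and 22.1% of all genes, with a median log2 fold change of 0.95 (0.84 with low genes at their bound). SHANK1, a scaffold of excitatory synapses, had the largest log2 fold change at 5.19 (edgeR adjusted p = 1.38e-09), followed by the adhesion gene SLITRK3 at 4.91 (edgeR adjusted p = 6.36e-06) and the scaffold gene DLG2 at 4.19 (edgeR adjusted p = 4.20e-08), taking genes with at least 50 counts on average. MDGA1, which blocks neuroligins from binding neurexins, had the largest decrease at -4.66 (edgeR adjusted p = 1.20e-08), followed by IL1RAPL1 at -3.15 (edgeR adjusted p = 9.48e-05) and HOMER3 at -2.02 (edgeR adjusted p = 1.72e-07). WT-EF raised 23 and lowered 9, DAF raised 17 and lowered 2, and Δ22 changed 0 by edgeR at an adjusted p under 0.05, beside the same shares of all genes as for the presynaptic set. At an unadjusted p under 0.05, 9 of these were higher and 2 lower with Δ22 (all genes 6.48% and 7.13%), and DESeq2's Wald test called 5 and 1 (all genes 2.80% and 3.72%).

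**Figure D4:**
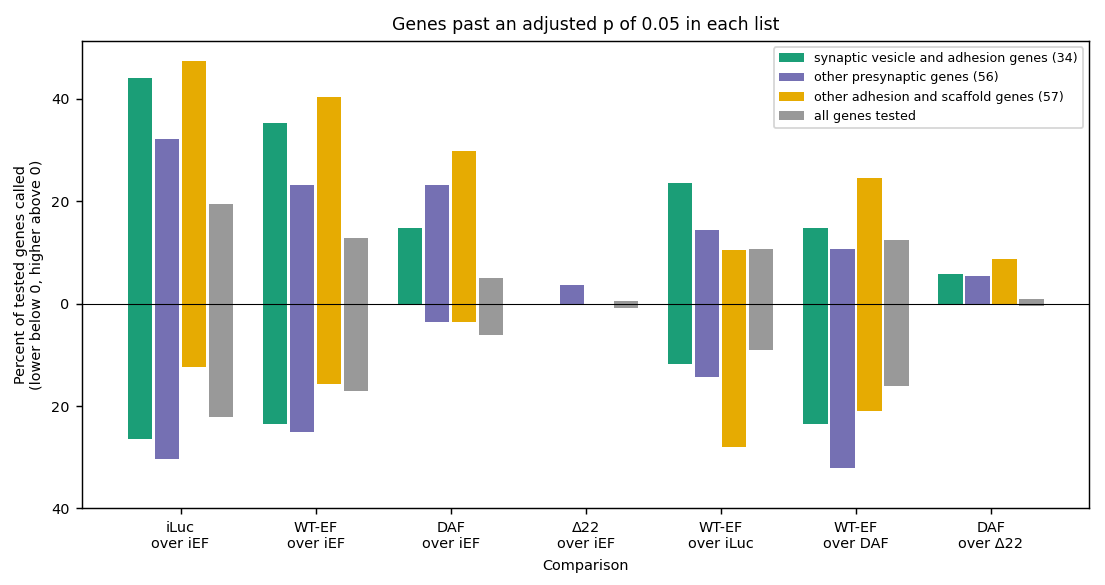
Percent of tested genes called higher (above 0) and lower (below 0) in each comparison, for the 34 synaptic vesicle and adhesion genes, the 2 other synaptic sets and all genes tested. For iLuc over iEF the 34 genes stand at 44.1% higher and 26.5% lower, and for DAF over iEF at 14.7% and 0%. Among all genes averaging at least 10 counts, not drawn here, the shares were 30.0% and 31.6%, and 10.1% and 10.3%.

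Between iLuc and iEF, general neuronal markers did not move as 1 group with these genes. Of 17 markers, 16 were matched and 15 tested, of which 5 were higher in iLuc than in iEF (ELAVL3, ELAVL4, NEFH, ENO2 and CHGA) and 7 were lower (TUBB3, NEFM, INA, GAP43, STMN2, NCAM1 and CHGB), beside 19.5% and 22.1% of all genes. ELAVL4 had only 13 counts summed over the iLuc libraries and 3 over those of iEF. The summed level of the 16 was 241 to 258 CPM in iLuc and 347 to 390.3 CPM in iEF libraries. It was 353 to 416, 393 to 433 and 425 to 471 CPM in WT-EF, DAF and Δ22. For the 36 synaptic genes the sum was 517 to 533 CPM in iLuc and 365 to 377 CPM in iEF. In WT-EF, DAF and Δ22 it was 497 to 603, 475 to 546 and 416 to 465 CPM. Both sums were thus above all iEF libraries in DAF and Δ22, and went opposite ways only in iLuc. SYT1 and SYT11, which moved opposite ways with endo-EF, made up a large part of the synaptic sum in every condition. That sum therefore does not describe the 36 genes as a group. Of the 16, RBFOX3 had at most 0.422 CPM, DCX 0.141 CPM and ELAVL2 0.0264 CPM, so nearly all of the summed level came from other markers of the list. MAP2 was called in neither direction between iLuc and iEF. Of 8 mesenchymal markers, 1 was higher and 5 were lower in iLuc, beside the same 19.5% and 22.1% of all genes. Their summed level was 199 to 309 CPM in iLuc, 1385 to 1917 CPM in iEF, 438 to 648 CPM in WT-EF, 1122 to 1446 CPM in DAF and 998 to 1680.4 CPM in Δ22. Summed glial markers stayed between 0.806 and 5.79 CPM over all 15 libraries and leukocyte markers between 0.322 and 1.07 CPM. The part of these markers in the changes above was not tested.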

How the data were processed

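RNA-seq was performed on 15 A673 libraries. The authors made the libraries with ScriptSeq, aligned reads to hg19 with STAR (version 2.5.1b in the submitters' processing notes) and deposited raw counts per Ensembl gene made with htseq-count (mode intersection-strict). The annotation version and the strand setting are not given in the sources used here. A deposited ComBat-adjusted table, a table of the authors' own fold changes and p-values, and 3 columns of the count table that belong to no sample analysed here were not used.

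Counts were tested with edgeR 4.0.16 (R 4.3.3) by its quasi-likelihood test, with TMM scaling, on 28793 genes averaging at least 1 count per library. Condition and replicate number, since the study's methods adjusted for replicate set, were fitted over all 15 libraries, and p-values were adjusted by Benjamini-Hochberg over all genes in each of 7 comparisons. Standard errors are the absolute log2 fold change divided by the square root of F. The script was tested on simulated data. RPKM and gene positions used GENCODE 44 lifted to GRCh37. Values are printed for every library of genes with a mean of at least 10 counts that passed an adjusted p of 0.05 and a 2-fold change in at least 1 comparison, except SYT12. Of other synaptic genes, the 3 with the largest increase and decrease per set were named among those past both cutoffs with a mean of at least 50 counts, of which 1 is not reported here. The members and all lists were chosen with earlier results of these data known. LPHN1, LPHN2, LPHN3 and NEFL were not matched by name. Of 6 tested Ewing sarcoma markers, 5 were higher in iLuc than in iEF, beside 19.5% of all genes. Libraries of 1 condition differed by more than sampling noise (chi-square of 12.9 to 83.2 per gene over 15 pairs), so none was taken as a duplicate. Alternatives were DESeq2 1.42.0 size factors and its Wald test, other filters on low counts, no replicate block, a fit of only the 6 libraries compared, and leaving out each library and each replicate number.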

Additional observations from a re-analysis of the deposited data

How the results depend on the processing

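Of 76 calls of the 34 genes over the 7 comparisons, 40 stood in all 24 alternatives, 36 missed an adjusted p of 0.05 in at least 1, and none of the 76 changed sign. Of 162 results that were not called, 27 were called in at least 1 alternative. DESeq2's Wald test called 3 genes higher and 1 lower with Δ22 against iEF, and with no filter on low counts 4 were higher. With no filter, 9 genes were lower in WT-EF than in iLuc. A fit of only the 6 libraries compared called 5 genes higher in WT-EF than in iLuc, and 5 higher and 3 lower with DAF than with Δ22, where that fit called 1411 and 1333 of all 28743 genes tested. The cause was not tested.

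Leaving out 1 library or 1 replicate number gave 11 to 16 genes higher and 7 to 9 lower in iLuc against iEF, 9 to 12 and 6 to 8 with WT-EF, 2 to 6 and 0 with DAF, and 0 to 2 and 0 with Δ22. It gave 2 to 9 higher and 1 to 5 lower in WT-EF against iLuc, 4 to 6 and 3 to 8 in WT-EF against DAF, and 1 to 2 and 0 in DAF against Δ22. Without the replicate 2 libraries of all conditions, 2 genes were higher with DAF, 2 higher and 1 lower in WT-EF against iLuc, and 3 lower in WT-EF against DAF. Without replicate 1, 4 were higher and 1 lower in WT-EF against iLuc.

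The labels do not say that replicate numbers pair the libraries. Deviations of same-numbered libraries from their condition means had a median correlation of 0.147 over 30 pairs, of which 19 were over 0.1 and the lowest was -0.117, beside a median of -0.0797 over 60 pairs of other numbers. With no replicate block, 13 genes were higher and 8 lower in iLuc against iEF, 11 and 8 with WT-EF, 4 and 0 with DAF, 7 and 3 in WT-EF against iLuc, and 4 and 5 in WT-EF against DAF, and the counts of the other comparisons were the same as with the block. Over all genes, the calls with Δ22 also moved. With no filter 784 were higher and 730 lower with Δ22, in place of 136 and 239, and 663 and 551 for DAF against Δ22, in place of 273 and 109. DESeq2's Wald test gave 463 and 615, and 469 and 308, and the fit of 6 libraries 231 and 289 with Δ22. With no replicate block they were 50 and 125, and 147 and 30. Leaving out libraries gave 0 to 409 higher and 0 to 552 lower with Δ22, with 0 and 0 without the replicate 2 libraries of all conditions, 15 and 39 without Δ22 replicate 2, 22 and 49 without Δ22 replicate 3, 24 and 66 without iEF replicate 1, 22 and 89 without iEF replicate 3, 55 and 138 without iEF replicate 2, and 409 and 552 without WT-EF replicate 3. For DAF against Δ22 it gave 75 to 452 and 9 to 289. Genes with few counts per library, such as SYT3 and CNTNAP5, are limited by counting error at this depth.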

Other observations

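RIMBP2 and LRRTM4, both outside the rule for naming genes, were chosen for description after their values were seen. RIMBP2 encodes a release-site protein that binds RIM proteins and calcium channels. It had iLuc libraries at 0.581, 0.729 and 0.776 CPM, iEF libraries at 0.105, 0.135 and 0.116 CPM, WT-EF libraries at 1.19, 1.82 and 2.05 CPM, DAF libraries at 1.41, 4.67 and 4.36 CPM and Δ22 libraries at 0.147, 0.339 and 0.2501 CPM. DAF replicates 2 and 3 were above all WT-EF libraries and DAF replicate 1 lay within their range, and all WT-EF and DAF libraries were above all iLuc libraries. RIMBP2 had a log2 fold change over iEF of 4.74 (standard error 0.34, edgeR adjusted p = 5.38e-06) for DAF, 3.78 (standard error 0.35, edgeR adjusted p = 2.03e-06) for WT-EF and 2.52 (standard error 0.38, edgeR adjusted p = 8.46e-05) for iLuc, and WT-EF differed from DAF by -0.96 (standard error 0.25, edgeR adjusted p = 0.00896). SV2B had its 2 highest libraries in DAF as well, and its difference of WT-EF from DAF was called without DAF replicate 1 but not over all libraries.

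LRRTM4, a postsynaptic adhesion gene, was high with WT-EF alone. It had iLuc libraries at 0.458, 0.477 and 0.597 CPM, iEF libraries at 0.0788, 0.540 and 0.116 CPM, WT-EF libraries at 3.77, 6.29 and 10.1 CPM, DAF libraries at 0.316, 0.422 and 0.469 CPM and Δ22 libraries at 0, 0.209 and 0.214 CPM. Each WT-EF library was above every library of the other 4 conditions. WT-EF exceeded iLuc by 3.65 (standard error 0.43, edgeR adjusted p = 5.85e-05) and DAF by 4.02 (standard error 0.45, edgeR adjusted p = 1.80e-05) on the log2 scale, and iLuc differed from iEF by 1.17 (95% interval -0.018 to 2.36, edgeR adjusted p = 0.108).

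Libraries of 1 condition differed in how near they came to iLuc. Over the 24 synaptic genes called between iLuc and iEF, WT-EF replicate 3 was the nearest of the 3 WT-EF libraries to iLuc at 13 genes, replicate 2 at 7 and replicate 1 at 4. For DAF the numbers were 3, 12 and 9 for replicates 1, 2 and 3, and for Δ22 they were 2, 16 and 6. FLI1 was at 16.0, 18.02 and 18.7 CPM in WT-EF, 22.1, 23.6 and 27.3 CPM in DAF and 24.4, 32.9 and 36.2 CPM in Δ22 replicates 1, 2 and 3, and its part in this was not tested. Its log2 fold change over iEF was 0.27 for WT-EF, which was not called by edgeR but was by DESeq2's Wald test. For DAF and Δ22 the log2 fold changes of FLI1 were 0.74 and 1.09, and both were called by edgeR.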
